A study of Mus musculus with 18 samples.

Results

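The mRNAs described here are those of 27 genes of cholesterol synthesis and of its control by the transcription factor SREBP2, chosen by symbol, of 16533 genes measured in mouse liver and 15579 measured in the mouse hepatocyte line AML12. They comprise 20 enzymes, in pathway order from Acat2 to Dhcr7, and 7 genes of regulation or sterol transport (Insig1, Insig2, Srebf2, Scap, Stard4, Mylip and Npc1). Livers came from male db/db mice of the strain B6.Cg-dock7m Leprdb/++/J, in which the leptin receptor does not signal and obesity and diabetes develop. Their age is not given in the sources used here. The treated mice had recombinant mouse serum albumin (rMSA) intravenously at 1.5 mg per g of body weight. It was given in 3 injections 3 weeks apart over 9 weeks, and the control mice had the same volume of saline. The livers sequenced were picked at random (n = 3 in each group). Per the study's methods, livers for omics were taken from fed mice. AML12 cells (genotype WT, an immortalized line) were starved overnight without serum and then kept for 24 h with 600 µM rMSA + 10 nM insulin, 600 µM rMSA, 10 nM insulin, or vehicle (n = 3 libraries each). The medium in which AML12 cells are grown before starvation holds insulin and dexamethasone, for all 4 groups alike. The labels do not say whether the libraries of an AML12 group came from separate cultures, so the p-values measure only the spread between these libraries, which may be technical.

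Cholesterol is built from acetyl-CoA by enzymes of the cytosol and the endoplasmic reticulum, first through mevalonate to the isoprenoid farnesyl diphosphate, then through squalene to lanosterol, and from there by a series of sterol-modifying steps. The precursor of SREBP2, encoded by Srebf2, is escorted by SCAP to the Golgi when sterols are scarce and is cut there, and the released part enters the nucleus and binds sterol regulatory elements of the genes of this pathway. INSIG1 and INSIG2 hold SCAP in the endoplasmic reticulum when sterols are plentiful, and Insig1 is itself a target of SREBP2. The liver is a main site of this synthesis.

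Levels are TPM values, in which a gene's reads are divided by its length and then put on a total that all libraries share, and which keep no read counts, so the depth of the libraries is unknown. In the liver 72% of the variance lay on a first principal component that parted rMSA from saline livers. Among AML12 libraries this share was 68.2%, and insulin libraries 2 and 1 lay farthest out on it at 84.5 and 35.5, while insulin library 3 lay at -17.1 among the vehicle libraries (-26.5 to -7.4). The TPM share of ribosomal protein genes was 35.3% (insulin library 2), 32.7% (insulin library 1) and 26.1% (insulin library 3), against 26% to 27.3% with vehicle. For this reason AML12 counts are given below with all 12 libraries fitted together and, where they differ, with only the compared groups in the fit. The 8 hepatocyte markers summed to 77100 to 84400 TPM in rMSA livers and 78100 to 94000 TPM in saline livers. In AML12 libraries 7 of them were listed and summed to 168 to 433 TPM, with Cps1 at 0 to 0.02 TPM, whereas 3 listed cholangiocyte markers, led by Krt19, summed to 1240 to 2190 TPM. The labelled cell type of AML12 therefore rests on few of these markers, among them Alb at 23.6 to 93.8 TPM and Hnf4a at 51.0 to 132 TPM.

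Promoters of 22 of the 27 genes were found in RefSeq (GRCm38.p6), from 250 bases before to 50 bases after a listed start site, with more than 1 start site for some genes. Fdps, Fdft1, Sqle, Stard4 and Npc1 were not matched. The sterol regulatory element TCACNCCAC, searched on both strands, was found in 1 of the 22 genes (Hmgcs1, 137 to 129 bases before the start) and in 1.24% of all 32851 promoters of that length. CCAAT, the motif of the factor NF-Y that binds beside SREBP2, was found in 20 of the 22 genes against 37.4% of all promoters. GGGCGG, the motif of Sp1, was found in 20 genes against 35.7%, and the E-box CACGTG in 5 genes against 7.15%. None of these motifs contains another, a match is no evidence of binding, and a gene with several start sites had more than 1 window in which to match. The 250 bases before the start are shown for Hmgcs1 (chr13:119690101-119690350, plus strand), for Mvk with 5 CCAAT matches (chr5:114444019-114444268, plus strand), for Insig1, whose mRNA rose in rMSA livers (chr5:28071162-28071411, plus strand), and for the most upstream start of Insig2, whose mRNA did not pass the test there (chr1:121332590-121332839, minus strand). They are written 5′ to 3′ on the strand of the gene, with the sterol regulatory element and CCAAT (or ATTGG, its reverse complement) in capitals.
Hmgcs1: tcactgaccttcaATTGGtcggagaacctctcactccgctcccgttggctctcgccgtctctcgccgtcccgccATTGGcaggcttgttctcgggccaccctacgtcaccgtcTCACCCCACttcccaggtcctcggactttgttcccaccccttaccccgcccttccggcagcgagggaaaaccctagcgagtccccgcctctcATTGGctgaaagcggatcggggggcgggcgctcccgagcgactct
Mvk: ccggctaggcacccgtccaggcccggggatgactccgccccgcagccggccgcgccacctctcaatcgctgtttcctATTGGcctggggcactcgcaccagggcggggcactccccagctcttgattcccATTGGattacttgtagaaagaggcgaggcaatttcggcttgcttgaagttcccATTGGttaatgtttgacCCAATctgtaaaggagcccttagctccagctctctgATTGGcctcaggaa
Insig1: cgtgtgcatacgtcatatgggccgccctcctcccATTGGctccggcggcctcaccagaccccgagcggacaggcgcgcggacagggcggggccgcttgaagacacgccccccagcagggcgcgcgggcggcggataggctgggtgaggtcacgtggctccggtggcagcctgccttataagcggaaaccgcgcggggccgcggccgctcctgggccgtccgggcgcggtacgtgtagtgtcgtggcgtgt
Insig2: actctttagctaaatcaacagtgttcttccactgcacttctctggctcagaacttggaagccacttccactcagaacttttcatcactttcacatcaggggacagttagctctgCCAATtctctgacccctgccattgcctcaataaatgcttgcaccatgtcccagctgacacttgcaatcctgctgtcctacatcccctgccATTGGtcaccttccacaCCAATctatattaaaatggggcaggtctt
The capitals mark 1 sterol regulatory element and 3 CCAAT matches in Hmgcs1, 5 CCAAT matches in Mvk, 1 in Insig1 and 3 in Insig2. The other listed start sites of Insig2 had no CCAAT match, so its place in the counts rests on the window shown. That window reaches into the span of the gene given below, which ends at base 121332662. Of the 22 genes, CCAAT was found in 14 of the 15 whose mRNA rose in rMSA livers and in 6 of the 7 whose mRNA did not pass the test there, so the letters did not part these genes.

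In rMSA livers, most mRNAs of the pathway were higher than in saline livers. With limma on log2(TPM + 1) and Benjamini-Hochberg adjustment over all 11398 tested genes, 19 of the 27 rose (adjusted p under 0.05) and 0 fell, where 21.8% of all tested genes rose and 8.38% fell. Of the 19, 17 also had a log2 fold change of at least 1, as 5.94% of all tested genes did. At an unadjusted p under 0.05 limma found 21 members, 2 of them lower, a count that was not set against all genes. The median log2 fold change was 1.61 over the 27 genes and 0.12 over all genes. TPM of rMSA and saline livers did not overlap for 19 members that were higher and 3 that were lower (Tm7sf2, Ebp and Scap), where 32.7% and 13.0% of all tested genes did not overlap in those directions. By stage, 7 of 8 mevalonate and isoprenoid genes, 3 of 3 genes from squalene to lanosterol, 6 of 9 sterol-modifying enzymes and 3 of 7 regulators or transport genes rose. Summed over the 20 enzymes, which TPM allows because it is per length, the level was 1837, 1875 and 1872 TPM in rMSA livers, against 645, 625 and 582 TPM in saline livers. In bulk tissue, a change in the number of cells of a type and a change in RNA per cell cannot be told apart. Markers of stellate cells and fibroblasts, 6 of 7 of which rose, summed to 256 to 333 TPM in rMSA livers and 108 to 228 TPM in saline livers, and 2 of the 8 hepatocyte markers rose while 5 fell. Of the tested markers of Kupffer cells and macrophages 1 of 7 rose, of endothelial cells 1 of 6 and of cholangiocytes 2 of 4. Of 4 tested markers of lymphocytes and neutrophils 2 rose and 1 fell. Their part in the levels below was not tested.

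**Figure D1:**
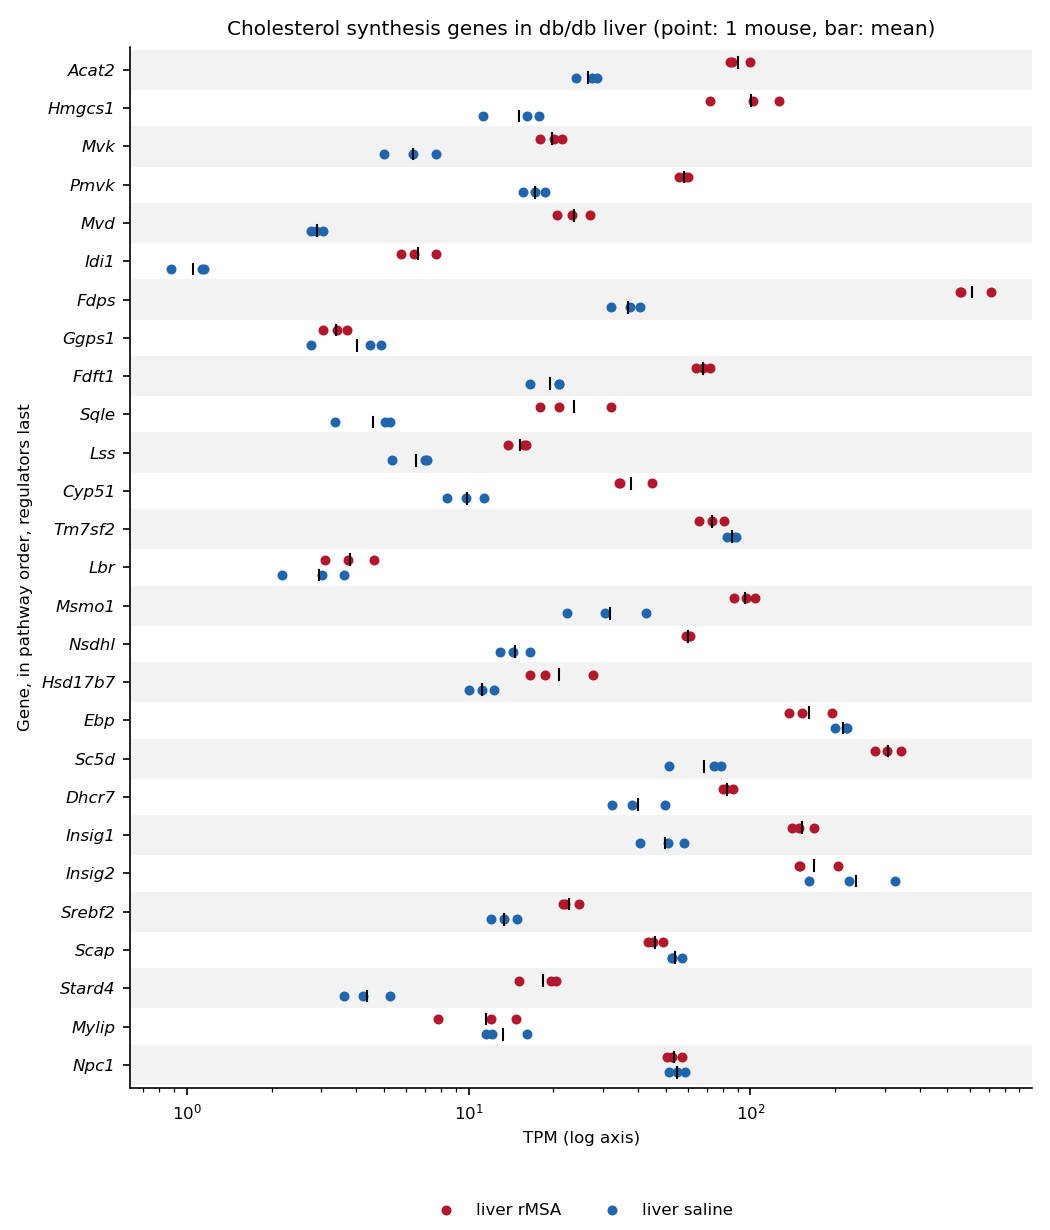
TPM (log axis) of the 27 genes in each liver, in pathway order with regulators last, with rMSA livers above saline livers and 1 point for each mouse (bar, group mean). The rMSA livers lie to the right of every saline liver for 19 genes and to the left of every saline liver for Tm7sf2, Ebp and Scap.

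Among the enzymes that lead to farnesyl diphosphate, the largest difference was that of Fdps, the farnesyl diphosphate synthase (gene 110196, GRCm38.p6 chromosome 3, 89093588 to 89101967). Fdps stood at 552.5, 714 and 560.4 TPM in rMSA livers, against 40.6, 37.3 and 32.1 TPM in saline livers, a ratio of means of 16.6 and a log2 fold change of 4.01 (SE 0.14, limma's adjusted p = 2.01e-06). It made up 29.9% to 38.1% of the summed enzyme TPM in rMSA livers and 5.51% to 6.29% in saline livers, and ranked first of the 27 genes by mean level in rMSA livers and 9th in saline livers. Mvd, which decarboxylates mevalonate diphosphate, stood at 27.01, 23.3 and 20.6 TPM in rMSA livers, against 2.88, 3.04 and 2.76 TPM in saline livers (log2 fold change 2.65, SE 0.14, limma's adjusted p = 1.41e-05). For both genes the lowest rMSA liver lay far above the highest saline liver, and the saline livers lay close together. Hmgcs1, the cytosolic HMG-CoA synthase (chromosome 13, 119690351 to 119708260), stood at 102, 71.8 and 127 TPM in rMSA livers, against 16.1, 17.8 and 11.2 TPM in saline livers (log2 fold change 2.64, SE 0.23, limma's adjusted p = 1.14e-04). Idi1, the isopentenyl diphosphate isomerase, stood at 5.77, 6.42 and 7.65 TPM in rMSA livers, against 1.13, 1.15 and 0.88 TPM in saline livers. Its ratio of means was 6.28, and its log2 fold change of 1.89 (SE 0.16, limma's adjusted p = 9.16e-05) understates this because the saline levels lie near the 1 TPM that was added. Acat2 (acetoacetyl-CoA thiolase), Pmvk (phosphomevalonate kinase) and Mvk (mevalonate kinase) had log2 fold changes of 1.72, 1.70 and 1.51. Acat2 averaged 90.0 ± 8.32 TPM in rMSA livers and 26.6 ± 2.32 TPM in saline livers (SD, n = 3 each). Pmvk averaged 58.1 ± 2.37 TPM in rMSA livers and 17.2 ± 1.52 TPM in saline livers, and Mvk 19.8 ± 1.76 TPM in rMSA livers and 6.35 ± 1.34 TPM in saline livers. Ggps1, which draws farnesyl diphosphate off to geranylgeranyl diphosphate for protein prenylation, was the exception. It stood at 3.42, 3.04 and 3.70 TPM in rMSA livers, against 4.88, 4.45 and 2.77 TPM in saline livers, which overlap (log2 fold change -0.18, SE 0.19, limma's adjusted p = 0.546).

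From squalene on, Sqle and Sc5d had the largest differences, and 3 sterol enzymes did not pass the test. Sqle, the squalene epoxidase, stood at 17.9, 20.9 and 31.9 TPM in rMSA livers, against 5.26, 5.07 and 3.36 TPM in saline livers (log2 fold change 2.12, SE 0.23, limma's adjusted p = 3.65e-04). Fdft1 (squalene synthase) averaged 67.9 ± 3.72 TPM in rMSA livers and 19.4 ± 2.52 TPM in saline livers, with a log2 fold change of 1.76 (SD, n = 3 each). Lss (lanosterol synthase) averaged 15.2 ± 1.2 TPM in rMSA livers and 6.49 ± 0.986 TPM in saline livers, with one of 1.12. Sc5d, a sterol desaturase, stood at 304, 277 and 343 TPM in rMSA livers, against 74.4, 78.9 and 51.3 TPM in saline livers (log2 fold change 2.18, SE 0.17, limma's adjusted p = 7.02e-05). The lowest rMSA liver was above the highest saline liver for each of these genes. Nsdhl, which with Msmo1 and Hsd17b7 removes methyl groups from the sterol, stood at 61.1, 59.1 and 60.1 TPM in rMSA livers, against 16.5, 14.3 and 12.9 TPM in saline livers (log2 fold change 1.98, SE 0.12, limma's adjusted p = 1.98e-05). Cyp51 (the lanosterol demethylase), Msmo1, Dhcr7 (a sterol reductase of the last steps) and Hsd17b7 had log2 fold changes of 1.83, 1.61, 1.06 and 0.83, and Hsd17b7, at 16.5 to 27.7 TPM in rMSA livers and 10.1 to 12.3 TPM in saline livers, had the weakest call of these 4 (limma's adjusted p = 0.0125). Tm7sf2 and Lbr encode sterol reductases of the same step, of which LBR is also a protein of the inner nuclear membrane. Tm7sf2 stood at 80.4, 65.5 and 73.2 TPM in rMSA livers, against 88.9, 82.6 and 86.9 TPM in saline livers (log2 fold change -0.24, SE 0.11, limma's adjusted p = 0.126). Lbr stood at 3.72, 3.09 and 4.6 TPM in rMSA livers, against 3.62, 3.02 and 2.18 TPM in saline livers (log2 fold change 0.29, SE 0.19, limma's adjusted p = 0.30). Ebp, the sterol isomerase, stood at 195, 152 and 137 TPM in rMSA livers, against 219, 199 and 219.9 TPM in saline livers (log2 fold change -0.41, SE 0.14, limma's adjusted p = 0.0536). Every rMSA liver was below every saline liver for Tm7sf2 and Ebp, by less than the levels of most other enzymes differed.

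Among the regulators, Insig1 and Srebf2 rose and Insig2 and Scap did not. Insig1 (chromosome 5, 28071412 to 28078662) stood at 168, 149 and 141 TPM in rMSA livers, against 51.0, 57.9 and 40.6 TPM in saline livers (log2 fold change 1.61, SE 0.14, limma's adjusted p = 1.27e-04). Insig2 (chromosome 1, 121304353 to 121332662) stood at 149, 149.7 and 205 TPM in rMSA livers, against 325, 224 and 161 TPM in saline livers (log2 fold change -0.45, SE 0.24, limma's adjusted p = 0.201). The Insig2 groups overlap through 1 rMSA liver and 1 saline liver. The ratio of Insig1 to Insig2 was 1.13, 0.995 and 0.688 in rMSA livers, against 0.157, 0.258 and 0.252 in saline livers, so it was higher in every rMSA liver than in any saline liver. Srebf2, which encodes SREBP2 (chromosome 15, 82147269 to 82205379), stood at 22.0, 21.7 and 24.6 TPM in rMSA livers, against 12.0, 13.4 and 14.9 TPM in saline livers (log2 fold change 0.73, SE 0.12, limma's adjusted p = 0.00323). Scap stood at 48.9, 43.4 and 44.9 TPM in rMSA livers, against 52.5, 52.7 and 57.2 TPM in saline livers (log2 fold change -0.24, SE 0.10, limma's adjusted p = 0.106). The Srebf2 difference was smaller than that of most enzymes, and the groups did not overlap for either gene. Stard4, a cytosolic sterol carrier, stood at 20.4, 15.1 and 19.7 TPM in rMSA livers, against 4.21, 5.26 and 3.62 TPM in saline livers (log2 fold change 1.86, SE 0.17, limma's adjusted p = 1.49e-04). Mylip, a ubiquitin ligase that acts on lipoprotein receptors and is a target of the oxysterol receptor LXR, stood at 7.77, 12.0 and 14.7 TPM in rMSA livers, against 16.1, 12.1 and 11.5 TPM in saline livers (log2 fold change -0.22, SE 0.23, limma's adjusted p = 0.522). Npc1, which exports cholesterol from lysosomes, stood at 50.6, 52.8 and 57.3 TPM in rMSA livers, against 51.5, 58.5 and 55.0 TPM in saline livers (log2 fold change -0.04, SE 0.10, limma's adjusted p = 0.818). The libraries of both groups overlapped for Mylip and for Npc1.

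The 19 calls were the same genes after quantile normalization and after centring every library on its median, a step that shifts the all-gene median by -0.14 (log2). Of the genes that were lower without passing, Ebp then passed after centring (log2 fold change -0.55, limma's adjusted p = 0.0485) and Ebp, Tm7sf2 and Scap after quantile normalization (limma's adjusted p of 0.0216, 0.02 and 0.0266). Ebp also passed without rMSA liver 1 (-0.55, limma's adjusted p = 0.0116) and Insig2 without saline liver 3 (-0.70, limma's adjusted p = 0.0234) or with array weights (-0.59, limma's adjusted p = 0.0447). Of the 27 genes, Fdft1, Tm7sf2 and Npc1 overlap the protein-coding genes Ctsb, Vps51 and Rmc1 in RefSeq, and Acat2 overlaps a pseudogene. Any sequence-related copies of Fdps, to which the counting may have assigned reads, were not searched for here. Whether strand was used in counting is not given in the sources used here, so reads of overlapping genes may have been shared.

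Genes that supply or surround the pathway were read from lists written with results of these data known. Their counts stand beside the 21.8% of all tested genes that rose, the 8.38% that fell and the all-gene median of 0.12, and no list was tested as a set. Of 9 genes of electron donors and cytosolic acetyl-CoA supply, 7 rose and 1 fell in rMSA livers, with a median log2 fold change of 1.15. Acly, the ATP citrate lyase that makes cytosolic acetyl-CoA, stood at 314, 325 and 218 TPM in rMSA livers, against 44.1, 34.8 and 44.6 TPM in saline livers (log2 fold change 2.75, limma's adjusted p = 2.76e-05). Aacs, which activates acetoacetate, and Cyb5r3, a reductase that feeds electrons to cytochrome b5, had log2 fold changes of 2.56 and 1.32 (limma's adjusted p of 7.08e-05 and 9.16e-05). Por, the reductase that passes electrons to squalene epoxidase and to CYP51 and other P450 enzymes, went the other way. Por stood at 281, 320 and 345 TPM in rMSA livers, against 1084, 1021 and 1173 TPM in saline livers (log2 fold change -1.79, limma's adjusted p = 2.76e-05). Of 14 genes of SREBP processing and sterol-dependent degradation, 6 rose (median 0.26). Srebf1, the gene of the related factor SREBP1, stood at 252, 277 and 209 TPM in rMSA livers, against 59.6, 39.7 and 63.1 TPM in saline livers (log2 fold change 2.18, limma's adjusted p = 1.02e-04). Erlin1, Sec24c and Sec24d, of which the Sec24 proteins belong to the coat that carries SCAP to the Golgi, had log2 fold changes of 1.03, 0.85 and 0.54 (limma's adjusted p of 0.00118, 7.59e-04 and 0.0142). Of 11 tested genes of LXR and oxysterols, 1 rose and 4 fell (median -0.24). Abcg5 and Abcg8 encode the pump that exports sterols into bile. Abcg5 stood at 41.4, 47.2 and 58.6 TPM in rMSA livers, against 187, 136 and 141 TPM in saline livers (log2 fold change -1.64, limma's adjusted p = 2.37e-04). Abcg8 stood at 28.6, 31.7 and 38.5 TPM in rMSA livers, against 175, 97.1 and 128 TPM in saline livers (log2 fold change -1.96, limma's adjusted p = 3.26e-04). Both were lower in every rMSA liver. Cyp7b1, an oxysterol hydroxylase, fell by 1.22 on the log2 scale (limma's adjusted p = 0.00342), and Lpcat3, a phospholipid acyltransferase under LXR control, had a log2 fold change of 0.77 (limma's adjusted p = 0.00131). Of 13 genes of cholesterol esterification, uptake and lysosomal release, 4 rose and 2 fell (median 0.25). Those that rose were Lipa (lysosomal acid lipase, 1.47), Soat2 (which esterifies cholesterol, 1.20), Nceh1 (a cholesteryl ester hydrolase, 1.04) and Tmem97 (a sterol-binding membrane protein, 0.91), with limma's adjusted p of 1.01e-04, 0.00108, 0.00529 and 4.69e-04. Of 14 genes of the non-sterol branches of the mevalonate pathway, 3 rose (median 0.14), a share and a median near those of all genes. They were Coq2 of ubiquinone synthesis (0.56), Fntb, a subunit of farnesyltransferase (0.72), and Dhdds of dolichol synthesis (0.61), with limma's adjusted p of 0.00316, 0.00676 and 0.00844.

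In AML12 cells the pathway was expressed in all 4 groups, with the highest summed level in vehicle cells. The summed TPM of the 20 enzymes was 2055, 1842 and 2000 with rMSA + insulin, 2570, 2403 and 2309 with rMSA, 2013, 1760 and 2084 with insulin, and 2732, 2653 and 2698 with vehicle. Every vehicle sum was above those of all other groups, and both groups with insulin were below both groups without it. The sums lean on Fdps, which averaged 947 TPM with vehicle and 646 TPM with rMSA. It made up 33.4% to 36.3% of the sum with vehicle and 24.8% to 28.7% with rMSA. The higher vehicle sum is therefore no sign that most enzymes were higher with vehicle than with rMSA. Between these 2 groups 17 of the 26 tested members overlapped. Fdps had the highest level of the 27 genes in all 4 groups, and Ebp and Msmo1 followed. Mylip was listed at 0 in 11 of the 12 libraries and at 0.05 TPM in insulin library 1, and was not tested. The ratio of Insig1 to Insig2 was 1.70, 1.48 and 1.6 with rMSA + insulin, 3.24, 2.91 and 3.12 with rMSA, 3.47, 2.31 and 3.71 with insulin, and 5.91, 6.02 and 5.26 with vehicle. This ratio was lowest in every library with rMSA + insulin and highest in every vehicle library. The livers were normalized in a separate table, so AML12 levels were not tested against liver levels.

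The regulators differed in how much they varied between AML12 groups. Srebf2 stood at 132, 104 and 132 TPM with rMSA + insulin, 172, 159 and 138 TPM with rMSA, 71.8, 58.0 and 129 TPM with insulin, and 155, 146 and 133 TPM with vehicle. Scap stood at 31.3, 27.5 and 32.7 TPM with rMSA + insulin, 29.8, 30.9 and 27.2 TPM with rMSA, 19.7, 20.4 and 30.6 TPM with insulin, and 31.3, 31.6 and 32.4 TPM with vehicle. Insulin libraries 1 and 2 were thus the low ones for both genes, and insulin library 3 lay near the other groups. Stard4 stood at 15.9, 10.6 and 16.3 TPM with rMSA + insulin, 31.8, 26.97 and 23.5 TPM with rMSA, 15.3, 7.83 and 23.1 TPM with insulin, and 32.4, 29.0 and 28.9 TPM with vehicle. Npc1 stood at 25.8, 22.6 and 30.6 TPM with rMSA + insulin, 38.9, 38.1 and 30.3 TPM with rMSA, 15.0, 14.04 and 35.4 TPM with insulin, and 33.7, 31.1 and 26.6 TPM with vehicle. For Stard4 both groups with insulin lay below both groups without it, and for Npc1 insulin libraries 1 and 2 lay below every other library and insulin library 3 above every vehicle library. Among the enzymes, Msmo1 averaged 248 ± 37.6 TPM with rMSA + insulin, 354 ± 39.4 TPM with rMSA, 155 ± 76.2 TPM with insulin and 293 ± 24.2 TPM with vehicle (SD, n = 3 each). Hsd17b7, Lbr and Ggps1 had low levels, at 1.34 to 14.6, 2.80 to 8.62 and 5.06 to 14 TPM over the 12 libraries.

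**Figure D2:**
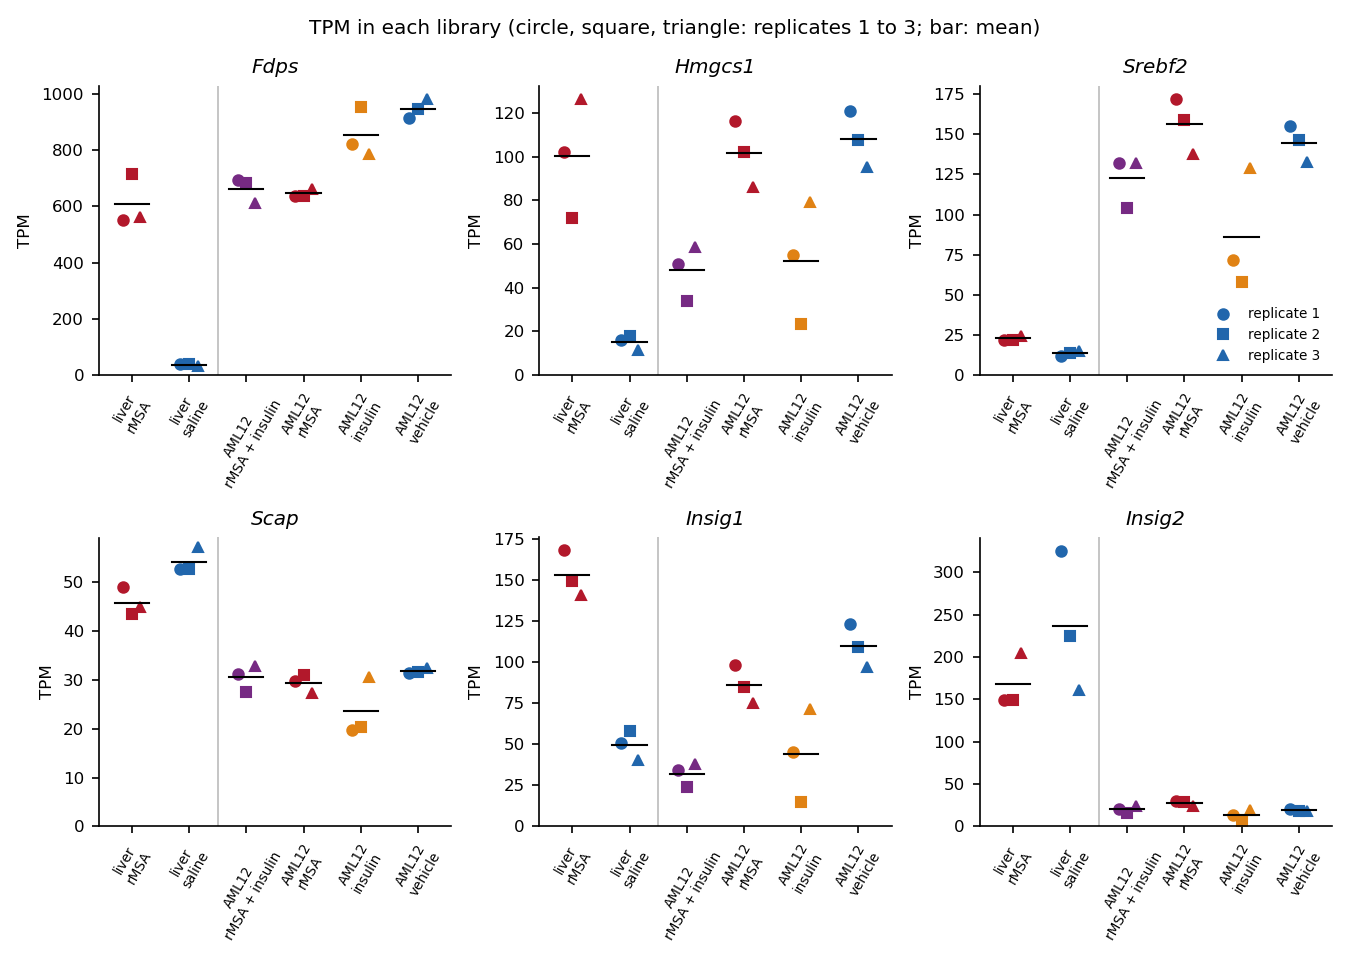
TPM (y axis from 0, its own scale in each panel) of Fdps, Hmgcs1, Srebf2, Scap, Insig1 and Insig2 in every library of the 6 groups, with a bar at the mean. Fdps and Insig1 are higher in every rMSA liver than in any saline liver, while in AML12 cells Fdps is lower in every library with rMSA + insulin or rMSA than in any with insulin or vehicle. The 3 insulin libraries spread widely for Hmgcs1, Srebf2 and Insig1.

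With rMSA against vehicle, 2 of 26 tested members fell and 0 rose in AML12 cells, where 1.89% of the 10826 tested genes fell and 5.9% rose. Fdps stood at 638, 638 and 662 TPM with rMSA, against 914, 947 and 981 TPM with vehicle (log2 fold change -0.55, SE 0.08, limma's adjusted p = 0.00172). Tm7sf2 stood at 65.2, 58.9 and 68.5 TPM with rMSA, against 84.9, 89.6 and 101 TPM with vehicle (log2 fold change -0.51, SE 0.11, limma's adjusted p = 0.0183). Both were lower in every rMSA library, and the median over the 26 genes was -0.06 against 0.06 over all genes. Both lost the call after median centring, with log2 fold changes of -0.62 and -0.58 (limma's adjusted p of 0.152 and 0.213). Tm7sf2 also lost it without vehicle library 2 or 3 or rMSA library 1 or 2 (limma's adjusted p of 0.0611, 0.0897, 0.0624 and 0.0898). With only rMSA and vehicle in the fit, 3 fell (Fdps, Tm7sf2 and Insig1) and 2 rose (Acat2 and Insig2), where 7.37% of genes fell and 16.9% rose. After quantile normalization 3 fell (Fdps, Tm7sf2 and Dhcr7) and 1 rose (Insig2), where 5.75% of genes fell and 6.69% rose. Insig1 stood at 97.9, 84.7 and 75.1 TPM with rMSA, against 123, 109 and 97.0 TPM with vehicle. In all 12 libraries its log2 fold change was -0.35 (SE 0.43, limma's adjusted p = 0.839), and in the smaller fit its SE was 0.11 (limma's adjusted p = 0.044). Insig2 stood at 30.3, 29.1 and 24.0 TPM with rMSA, against 20.8, 18.1 and 18.4 TPM with vehicle. Its log2 fold change was 0.51 (SE 0.29, limma's adjusted p = 0.426 in all libraries, and 0.0066 in the smaller fit), and every rMSA library was above every vehicle library. Of the other regulators, Srebf2, Scap, Stard4 and Npc1 had log2 fold changes of 0.11, -0.12, -0.14 and 0.22 (limma's adjusted p of 0.943, 0.859, 0.942 and 0.856). Groups did not overlap for 7 members that were lower (Mvk, Pmvk, Mvd, Fdps, Tm7sf2, Dhcr7 and Scap) and 2 that were higher (Acat2 and Insig2), where 14.2% and 25.5% of all tested genes did not overlap in those directions.

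With rMSA + insulin against insulin, 1 of 26 members rose and 2 fell, where 14.5% of all genes rose and 2.73% fell. Acat2 stood at 70.7, 62.3 and 66.2 TPM with rMSA + insulin, against 54.3, 40.9 and 42.0 TPM with insulin (log2 fold change 0.54, SE 0.11, limma's adjusted p = 0.00793). Fdps stood at 695, 682 and 612 TPM with rMSA + insulin, against 822, 952 and 788 TPM with insulin (log2 fold change -0.36, SE 0.08, limma's adjusted p = 0.0116). Tm7sf2 stood at 63.9, 59.7 and 55.9 TPM with rMSA + insulin, against 88.0, 89.8 and 70.2 TPM with insulin (log2 fold change -0.45, SE 0.11, limma's adjusted p = 0.0198). In all 3 cases every library with rMSA + insulin lay on 1 side of every insulin library. With only these 2 groups in the fit, 0 members passed, where 2.7% of genes rose and 0.392% fell. The Acat2, Fdps and Tm7sf2 calls were lost after median centring (limma's adjusted p of 0.376, 0.108 and 0.0849) and in that smaller fit (0.119, 0.16 and 0.149), and that of Acat2 after quantile normalization (0.163). Fdps also lost it without rMSA + insulin library 3 (0.0614), and Tm7sf2 without that library (0.088), rMSA + insulin library 2 (0.0587) or insulin library 1 (0.0758). Groups did not overlap for 3 members that were higher (Acat2, Pmvk and Fdft1) and for Fdps and Tm7sf2, which were lower, where 20.7% and 4.81% of all genes did not overlap in those directions. The 26 genes had a median of 0.35 against 0.21 over all genes. Besides the groups in the fit, the count depended on insulin library 3, without which 16 members rose and 2 fell. In that setting 49.0% of all tested genes rose. Insig1, Insig2, Srebf2, Scap, Stard4 and Npc1 had log2 fold changes of -0.22, 0.69, 0.58, 0.38, -0.01 and 0.40, with limma's adjusted p between 0.114 and 0.986. The effect of rMSA with insulin was not shown to differ from that without it for any member. The interaction passed for 0 members in either direction, where 0.0369% and 0.0% of all genes passed as higher and lower, and 4 members had an unadjusted p under 0.05 (lowest limma's adjusted p = 0.648). That unadjusted count was not set against all genes.

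Insulin libraries had lower levels of most members than vehicle libraries, but none passed the adjusted test. For insulin against vehicle 0 members rose or fell by limma, where 0.0% of all genes passed in either direction, and 21 members, all lower, had an unadjusted p under 0.05 (lowest limma's adjusted p = 0.117). The share of all genes under that unadjusted p was not counted. Such p-values were common among all genes, since limma's p of 0.0487 for Lbr became only 0.136 after adjustment over all of them. The insulin group lay below the vehicle group without overlap for 20 of the 26 members, where 11.8% of all genes did. Their median log2 fold change was -0.71 against -0.30 over all genes. Insig1 stood at 45.3, 15.1 and 71.5 TPM with insulin, against 123, 109 and 97.0 TPM with vehicle (log2 fold change -1.54, SE 0.43, limma's adjusted p = 0.135). Idi1 stood at 5.10, 0.89 and 7.82 TPM with insulin, against 16.2, 14.1 and 12.3 TPM with vehicle (log2 fold change -1.70, SE 0.46, limma's adjusted p = 0.135). Hmgcs1, Hsd17b7, Lss, Cyp51, Msmo1, Stard4, Sc5d and Sqle had log2 fold changes between -1.19 and -1.02, and Srebf2, Insig2, Npc1 and Scap -0.82, -0.64, -0.60 and -0.44. Insulin library 2 was the lowest of the 3 for 20 members and insulin library 3 the highest for 18. Taken alone, insulin library 3, the 1 that lay among the vehicle libraries on the first component, was below every vehicle library for 22 of 26 members, where 17.8% of all tested genes were. Centring each library on its median shifts the all-gene median of this comparison by 0.40, and 1 member, Lss, fell then, where 0.0185% of genes fell. Without insulin library 3, 23 of 26 members fell, where 61.3% of all genes fell. Acat2, Hmgcs1, Srebf2, Insig2, Scap, Stard4 and Npc1 were among those 23, and Pmvk, Fdps and Tm7sf2 were not.

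**Figure D3:**
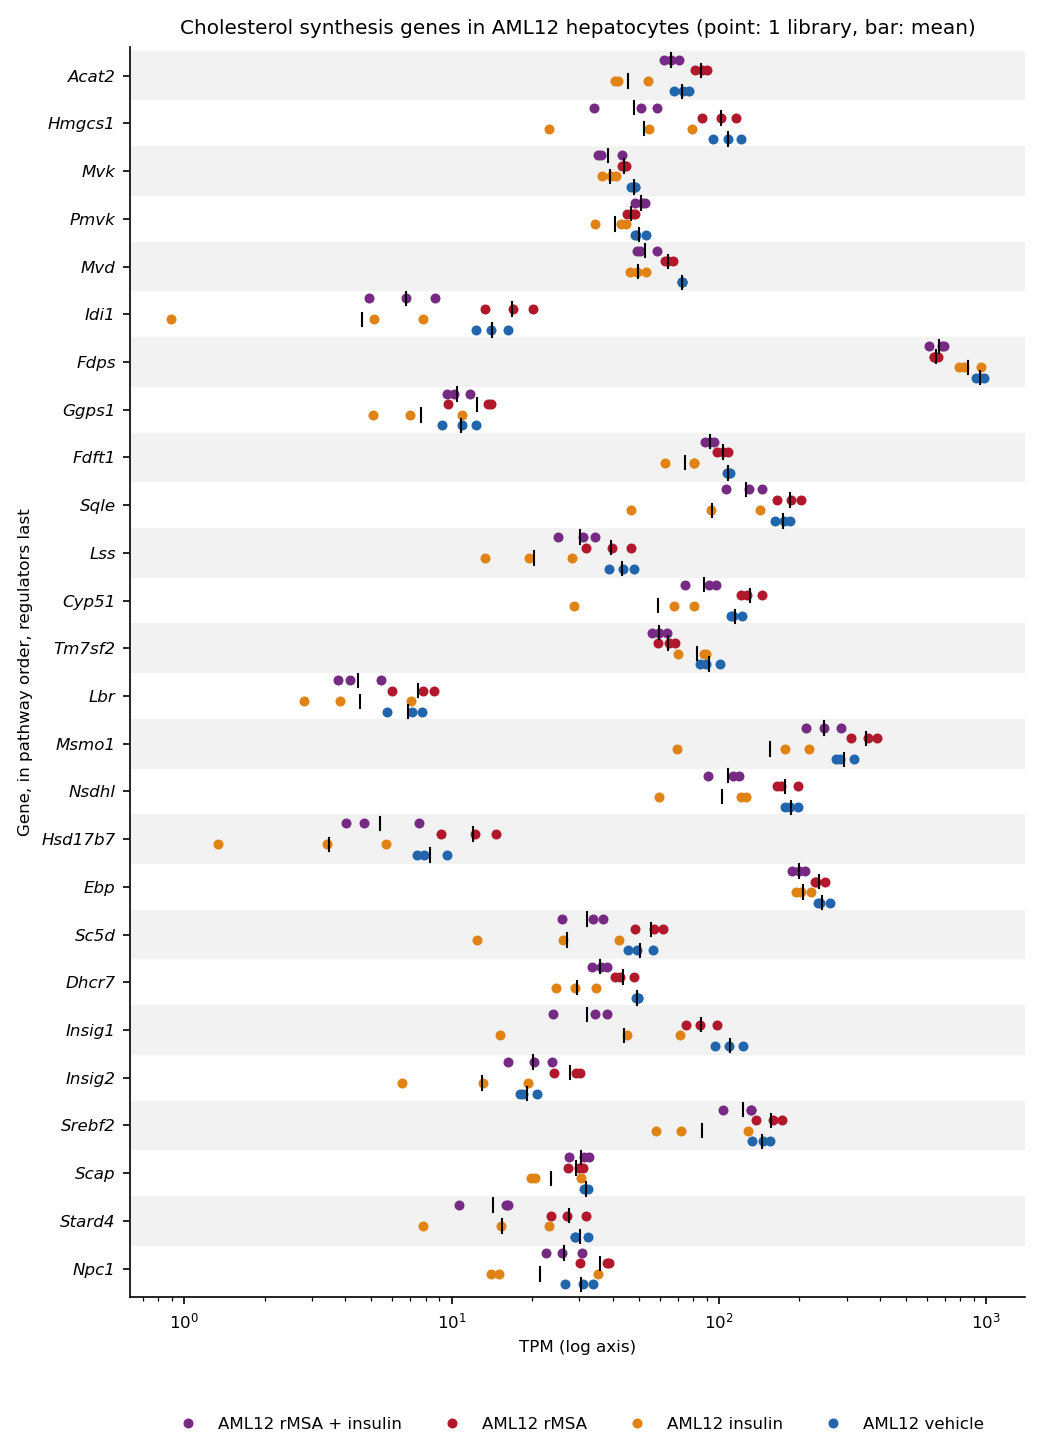
TPM (log axis) of 26 genes in each AML12 library, in pathway order with regulators last, and from top to bottom within a gene with rMSA + insulin, rMSA, insulin and vehicle, with 1 point per library and a bar at the mean. Insulin points spread widely for several genes, as for Idi1 between 0.89 and 7.82 TPM, and Fdps and Tm7sf2 are lower in both groups with rMSA than in vehicle cells.

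Against rMSA alone, rMSA + insulin gave 0 members that rose or fell in the fit of all 12 libraries, where 2.95% of all genes rose and 1.1% fell, although 13 members, all lower, had an unadjusted p under 0.05 (lowest limma's adjusted p = 0.081). How many of all genes lay under that unadjusted p was not counted. Many did, since limma's p of 0.0472 for Mvk became only 0.182 after adjustment over all genes. With only these 2 groups in the fit 18 of 26 fell and 0 rose, where 30.6% of genes fell. Insig1 stood at 34.5, 24.0 and 38.0 TPM with rMSA + insulin, against 97.9, 84.7 and 75.1 TPM with rMSA (log2 fold change -1.41, SE 0.17, limma's adjusted p = 0.00303 in the smaller fit, and SE 0.43, adjusted p = 0.0911 in the fit of all libraries). Idi1 stood at 6.73, 4.92 and 8.65 TPM with rMSA + insulin, against 20.1, 17.0 and 13.3 TPM with rMSA (log2 fold change -1.21, SE 0.21, limma's adjusted p = 0.00689 in the smaller fit). Hmgcs1 stood at 51.0, 34.0 and 58.7 TPM with rMSA + insulin, against 116, 102 and 86.1 TPM with rMSA (log2 fold change -1.09, SE 0.19, limma's adjusted p = 0.00736 in the smaller fit). The groups did not overlap for any of these 3 genes. Insig2 stood at 20.3, 16.2 and 23.7 TPM with rMSA + insulin, against 30.3, 29.1 and 24.0 TPM with rMSA. For Srebf2 and Insig2 the log2 fold changes were -0.35 and -0.46 (limma's adjusted p of 0.0408 and 0.0371 in the smaller fit, and 0.32 and 0.297 in the fit of all libraries). Scap and Fdps, for which the groups overlap, had log2 fold changes of 0.05 and 0.03 (limma's adjusted p of 0.816 and 0.774). Groups did not overlap for 18 lower members and for 1 higher member, Pmvk, where 37.1% and 18.6% of all genes did not overlap in those directions. The median was -0.40 against -0.15 over all genes. In the 3 libraries with rMSA + insulin, library 2 was the lowest for 21 members.

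Against vehicle, rMSA + insulin had the most calls of the AML12 comparisons in the fit of all 12 libraries, with 10 of 26 members that fell and 0 that rose, where 6.84% of all genes fell and 13.4% rose. The largest fall was that of Insig1, which stood at 34.5, 24.0 and 38.0 TPM with rMSA + insulin, against 123, 109 and 97.0 TPM with vehicle (ratio of means 0.293, log2 fold change -1.76, SE 0.43, limma's adjusted p = 0.0152). Hmgcs1 stood at 51.0, 34.0 and 58.7 TPM with rMSA + insulin, against 121, 108 and 95.2 TPM with vehicle (log2 fold change -1.18, limma's adjusted p = 0.0422). Stard4 stood at 15.9, 10.6 and 16.3 TPM with rMSA + insulin, against 32.4, 29.0 and 28.9 TPM with vehicle (log2 fold change -1.05, limma's adjusted p = 0.0344). All 3 are genes that rose in rMSA livers, but the present comparison adds insulin to rMSA. With rMSA against vehicle Insig1, Hmgcs1 and Stard4 had log2 fold changes of -0.35, -0.09 and -0.14. With insulin against vehicle they had -1.54, -1.19 and -1.04. None of these values passed in the fit of all 12 libraries. Nsdhl stood at 119, 90.7 and 113 TPM with rMSA + insulin, against 198, 177 and 185 TPM with vehicle (log2 fold change -0.80, limma's adjusted p = 0.038). Tm7sf2 and Fdps had log2 fold changes of -0.61 and -0.52 (limma's adjusted p of 0.00375 and 0.00144). Mvd stood at 58.5, 50.4 and 49.2 TPM with rMSA + insulin, against 72.7, 72.6 and 72.6 TPM with vehicle (log2 fold change -0.46, limma's adjusted p = 0.00377). Dhcr7 stood at 38.2, 33.5 and 36.2 TPM with rMSA + insulin, against 49.7, 49.7 and 49.0 TPM with vehicle. Dhcr7, Mvk and Ebp had log2 fold changes of -0.45, -0.32 and -0.29 (limma's adjusted p of 0.0236, 0.0334 and 0.022). Every library with rMSA + insulin was below every vehicle library for these 10 genes. Insig2, Srebf2, Scap and Npc1 had log2 fold changes of 0.05, -0.24, -0.06 and -0.21 (limma's adjusted p of 0.905, 0.472, 0.786 and 0.619). With only these 2 groups in the fit 18 members fell, where 31.6% of genes fell, and 18 lay below the vehicle group without overlap, where 36.0% of all genes did. The median was -0.46 against -0.10 over all genes. After median centring 7 members fell (Hmgcs1, Lss, Lbr, Nsdhl, Dhcr7, Insig1 and Stard4), where 14.3% of genes fell, and Fdps, Tm7sf2, Mvk, Mvd and Ebp no longer passed. Leaving out any 1 library of either group left 3 to 7 calls. They were 3 without vehicle library 1 or rMSA + insulin library 2, and 4 without vehicle library 2 or 3 or rMSA + insulin library 3. Mvd, Fdps and Tm7sf2 were called in all 6 of these fits and Hmgcs1, Stard4 and Nsdhl in 0, and Insig1 lost its call without vehicle library 1 or 2 or rMSA + insulin library 2.

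Genes of the related lists were also read in AML12 cells, where the shares of all genes called are those given above for each comparison. With rMSA against vehicle, for which 5.9% of all genes rose, 1 of 6 LXR and oxysterol genes rose (Cyp27a1, the sterol hydroxylase of mitochondria, 0.52, limma's adjusted p = 0.0101). So did 1 of 9 electron donor and acetyl-CoA genes (Cyb5r3, 0.28, limma's adjusted p = 0.0178) and 1 of 13 esterification and uptake genes. With only rMSA and vehicle in the fit, where 16.9% of genes rose and 7.37% fell, 3 electron donor and acetyl-CoA genes rose and 1 fell. Of esterification and uptake genes 1 rose and 2 fell. Of 14 SREBP processing and degradation genes 2 rose and 1, Srebf1, fell (-0.54, limma's adjusted p = 0.00103). Both other lists had 1 that rose and 0 that fell. Cyp27a1 stood at 29.5, 30.6 and 30.5 TPM with rMSA, against 20.7, 19.99 and 21.6 TPM with vehicle, and at 38.0, 34.5 and 33.4 TPM with rMSA + insulin, against 19.7, 24.1 and 24.6 TPM with insulin (log2 fold change 0.61, limma's adjusted p = 0.0024). With rMSA + insulin against insulin, for which 14.5% of all genes rose, 4 of 13 esterification and uptake genes and 4 of 9 electron donor and acetyl-CoA genes rose, among them Soat2 (0.60), Cyb5r3 (0.35) and Por (0.37), with limma's adjusted p of 0.0119, 0.00317 and 0.008. With only these 2 groups in the fit, 0 genes of the 5 lists passed by limma in this comparison, and Cyp27a1, Soat2, Cyb5r3 and Por had adjusted p of 0.0868, 0.176, 0.103 and 0.14. Soat2 stood at 12.1, 12.9 and 13.5 TPM with rMSA + insulin, against 5.58, 5.10 and 5.10 TPM with rMSA (log2 fold change 1.14, limma's adjusted p = 0.00182). It was the only gene of the 5 lists that passed in this comparison in the fit of all 12 libraries. With only rMSA + insulin and rMSA in the fit, 12.0% of genes rose and 30.6% fell. Of 14 SREBP processing and degradation genes 0 rose and 9 fell, and of 13 esterification and uptake genes 4 rose and 4 fell. LXR and oxysterol genes gave 1 and 3, electron donor and acetyl-CoA genes 0 and 4, and genes of the non-sterol branches 0 and 2. Srebf1 stood at 80.7, 60.7 and 77.9 TPM with rMSA + insulin, against 140.1, 138 and 126 TPM with vehicle (log2 fold change -0.88, limma's adjusted p = 0.0157). In that comparison, where 13.4% of all genes rose and 6.84% fell, 5 of the 13 esterification and uptake genes rose and 1 fell, with Soat2 at 0.83 (limma's adjusted p = 0.00188). Of 6 LXR and oxysterol genes 1 rose (Cyp27a1, 0.74, limma's adjusted p = 7.16e-04) and 2 fell. With only rMSA + insulin and vehicle in the fit, 22.4% of genes rose and 31.6% fell. Of the SREBP processing and degradation genes 1 rose and 8 fell, and of the esterification and uptake genes 6 rose and 4 fell. LXR and oxysterol genes gave 2 and 2, electron donor and acetyl-CoA genes 2 and 3, and genes of the non-sterol branches 1 and 2.

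**Figure D4:**
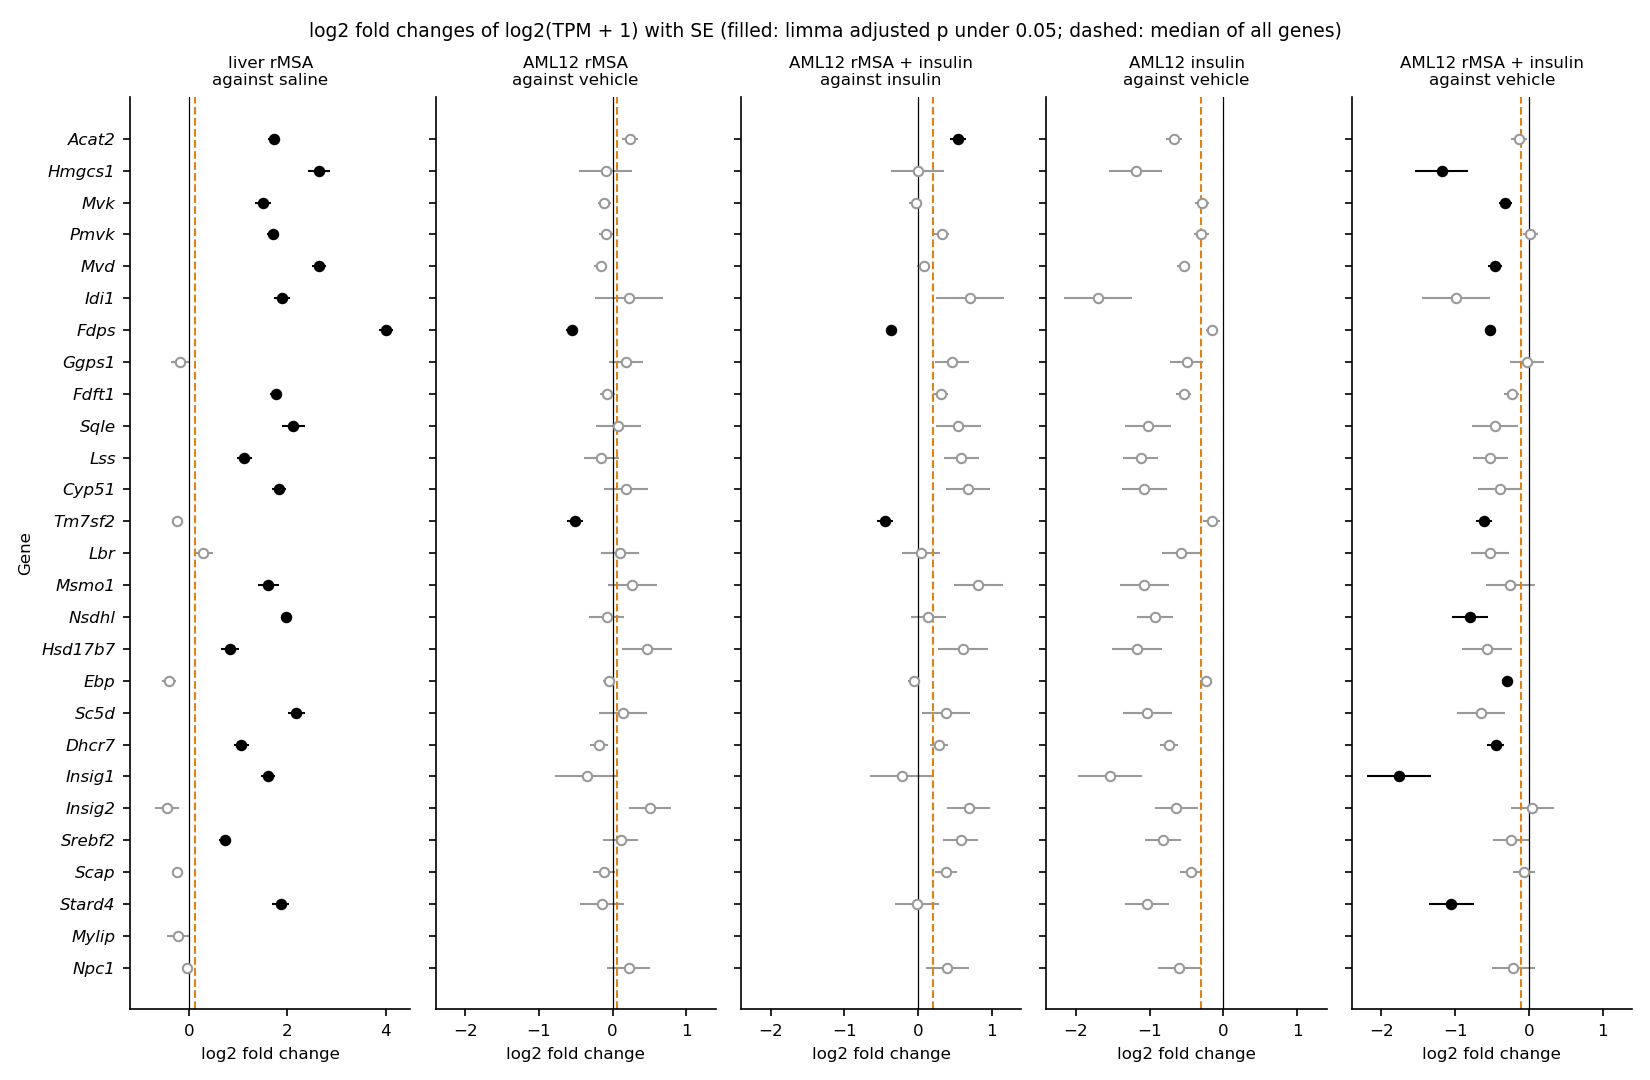
log2 fold changes (x axis, of log2(TPM + 1), with SE) of the 27 genes in the liver comparison and in 4 AML12 comparisons, with filled points for limma's adjusted p under 0.05 and a dashed line at the median of all tested genes. In the liver 19 points are filled and lie at 0.73 or above, whereas the filled AML12 points lie below 0 except that of Acat2 with rMSA + insulin against insulin. The liver panel has its own x scale, and Mylip was not tested in AML12 libraries.

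Set side by side, the rMSA comparisons of the 2 systems gave different values for the same genes, at exposures that also differ in dose, time and route. Fdps had log2 fold changes of 4.01 in livers (rMSA against saline) and -0.55 in AML12 cells (rMSA against vehicle). Mvd had 2.65 and -0.16, Hmgcs1 2.64 and -0.09, Sqle 2.12 and 0.08, and Idi1 1.89 and 0.22. Insig1 had 1.61 and -0.35, and Insig2 -0.45 and 0.51. Tm7sf2, with -0.24 and -0.51, was lower in every rMSA library than in every control library of both systems. The difference between the 2 systems was not tested.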

How the data were processed

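RNA-seq was measured in 6 livers and 12 AML12 libraries. The authors deposited TPM values, rounded to 2 decimals, for both experiments. Per the labels, RNA was depleted of ribosomal RNA and also purified with oligo(dT) beads, and the submitters' processing notes list GRCm38 and the tools STAR 2.5.2b, Trimmomatic 0.33, Subread 1.6.0 and featureCounts. Neither the annotation, nor the strand setting, nor the formula for TPM is given in the sources used here. Since TPM holds no counts, the authors' DESeq2 test could not be run again and the counting precision is unknown.

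Genes that averaged 1 TPM or more in an experiment (11398 in liver, 10826 in AML12) were tested on log2(TPM + 1) with limma 3.58.1 in R 4.3.3 (1 mean per group, mean-variance trend, two-sided moderated test, Benjamini-Hochberg adjustment over all tested genes of a comparison). A fold change on this scale understates that of low genes. The verbs rose and fell are used where the adjusted p is under 0.05. All 27 genes are named. Values in every library are given for up to 8 called genes with the largest log2 fold change in a comparison and for the regulators, and up to 4 genes with the smallest p are named from each related list. Other genes were given so after their values were seen. The members, lists and tests were chosen with earlier results of these data known.

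Alternatives were 0.1 or 5 TPM added, no filter or one at 5 TPM, median centring, quantile normalization, array weights, a robust fit, only the compared groups, insulin libraries 1 and 2 left out, each library left out, and the replicate number as a block. Same-numbered rMSA and vehicle libraries of AML12 deviated together (correlations of 0.53, 0.14 and 0.58), which meets the rule that every pair be over 0.1, although the labels give no reason for pairing. The livers (0.05, -0.41 and -0.39) and other pairs of AML12 groups fall short of it. Of these, the rMSA + insulin and insulin libraries (0.1, 0.79 and 0.8) miss it only in replicate 1, whose rounded value is at the threshold. Promoters and positions are from RefSeq, GRCm38.p6. Protein sequences were not used here. Some genes of the lists are not reported here.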

Additional observations from a re-analysis of the deposited data

Results flagged for a closer look

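For 5 genes every rMSA liver was above every saline liver, while every rMSA library of AML12 cells was below every vehicle library. Of the 9511 genes tested in both experiments, 5.71% had this pattern, against 5 of the 26 members tested in both (19.2%). Members lay apart more often than all genes in each system taken alone. In the liver 19 of 27 were higher without overlap (32.7% of all genes), and in AML12 cells 7 of 26 were lower (14.2%). The joint share follows from these shares and is no separate result about the members. Their log2 fold changes differ between liver and AML12 by 4.56 for Fdps, 2.82 for Mvd, 1.79 for Pmvk, 1.62 for Mvk and 1.23 for Dhcr7 (liver minus AML12). Of these 5 genes all rose in the liver, and in AML12 cells only Fdps passed the adjusted test (limma's adjusted p = 0.00172). In AML12 cells Mvd, Pmvk, Mvk and Dhcr7 had log2 fold changes of only -0.16, -0.09, -0.11 and -0.18. The difference between the 2 systems was not tested, and the dose, time, route and normalization differ between them.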

How the results depend on the processing

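The 19 liver calls stayed within 19 to 20 called members without any 1 library and did not move by over 1.5 times in any alternative run. The AML12 counts depended on the setting. A library was left out singly only in comparisons that include its group. Insulin libraries were therefore not left out singly for rMSA against vehicle or for rMSA + insulin against rMSA or vehicle. With rMSA against vehicle (2 members), 0 were called after median centring or with a log2 fold change of at least 1 added, 4 after quantile normalization or without insulin libraries 1 and 2, 5 with only the compared groups, and 1 to 2 without any 1 library. With rMSA + insulin against insulin (3 members), 0 were called after median centring, with the compared groups alone or with the fold threshold. Without any 1 library 1 to 18 were called, the highest without insulin library 3, where 49.0% of all genes rose. For insulin against vehicle (0 members), 1 was called after median centring, where 0.0185% of genes fell, and 2 after quantile normalization. With any 1 library left out 0 to 23 were called, the highest without insulin library 3, where 61.3% of all genes fell. With rMSA + insulin against rMSA (0 members), 6 were called after median centring or quantile normalization, 20 without insulin libraries 1 and 2, 18 with the compared groups alone, and 0 to 0 without any 1 library. With rMSA + insulin against vehicle (10 members), 18 were called without insulin libraries 1 and 2 or with the compared groups alone, 3 with the fold threshold, and 3 to 7 without any 1 library. For the interaction, 0 to 3 were called without any 1 library, the highest without insulin library 3. Centring shifted the all-gene median (log2) by 0.40 for insulin against vehicle, -0.25 for rMSA + insulin against insulin, 0.20 against rMSA and 0.14 against vehicle. The cause of these changes was not tested. The share of all genes called moved too: with rMSA + insulin against rMSA, 1.1% fell in the fit of all libraries, 7.0% after centring, 8.04% after quantile normalization, 30.6% with the compared groups alone and 36.9% without insulin libraries 1 and 2. Leaving out these libraries leaves 1 insulin library, so no count is given there for comparisons with the insulin group. Where a setting has no share of all genes here or above, its count was not set against all genes.

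With the replicate number as a block, the counts were 19 in the liver, and 2, 3, 0, 0, 10 and 0 in the AML12 comparisons in the order above, the interaction last. The block changed no count of calls. For AML12 it was fitted over all 12 libraries, of which only the rMSA and vehicle groups met the pairing rule. A blocked fit of these 2 groups alone was not run, nor was one of the rMSA + insulin and insulin groups alone. The counts therefore cannot decide whether pairing matters for either comparison. For single called genes, 463 values under alternatives kept direction and side of the threshold, 61 kept the direction without passing, and 0 reversed. Array weights did not converge for the AML12 libraries and were not run there. Depth is unknown from TPM, so what it limits cannot be given.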
